A study of Sus scrofa with 9 samples.

Results

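Nucleolar ribosome biogenesis factors are the proteins that transcribe, modify, cleave and fold ribosomal RNA and load ribosomal proteins onto it. They were followed here in the left ventricle of newborn pigs. A list of 46 genes was matched by symbol to the 22629 rows of the deposited abundance table, and 40 were listed. The values come from myocardium of wild type, untreated pigs aged 0, 7 or 15 days after birth, and each age has 3 libraries. Libraries carry the replicate numbers of their titles, which are 4, 5 and 6 at day 0, 2, 5 and 6 at day 7, and 1, 2 and 6 at day 15. The labels do not say whether each library came from a separate animal, so p-values measure only the spread between these libraries.

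Ribosomal RNA is made in the nucleolus by RNA polymerase I as a long precursor. Small nucleolar ribonucleoproteins (snoRNPs) guide its methylation and pseudouridylation, the small subunit processome folds and cuts the part that becomes the small subunit, and a separate series of factors builds the large subunit. In heart muscle, ribosome production accompanies growth, and many of these genes are known targets of the transcription factor MYC.

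Of the 6 genes not listed by symbol, NOP2 and NPM1 were found through their Ensembl identifiers, and NOP16, NHP2, UTP14A and DDX10 were not analysed here. NOP2 and NPM1 stand outside the rule and are kept out of every count. NOP2, a methyltransferase of large subunit RNA, was at 26.8, 23.4 and 35.8 TPM (transcript abundance per length, scaled to the same total in every library) at day 0, 9.85, 10.6 and 8.97 at day 7, and 7.07, 10.3 and 7.35 at day 15. NPM1, the abundant nucleolar chaperone nucleophosmin, was at 87.3, 97.7 and 108 TPM at day 0, 59.3, 63.8 and 57.6 at day 7, and 35.4, 58.9 and 43.2 at day 15. Both genes were lower in every library of day 7 and day 15 than in any of day 0. The adjusted p of limma for day 7 against day 0 was 0.00291 for NOP2 and 0.0341 for NPM1, and without day 0 replicate 6 that of NPM1 was 0.138.

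TPM is a share of each library, so its depth is unknown and every value shifts when a dominant transcript does. The most abundant row took between 24.0% and 46% of a library, and between 11290 and 12164 genes reached 1 TPM. The cardiomyocyte markers summed to between 47356 and 59364 TPM in the 9 libraries. Markers of atrial muscle summed to 2978 TPM in day 0 replicate 5 and 2350 TPM in day 7 replicate 5, against 169 to 847 TPM in the others, while SLN, a defining atrial gene, reached at most 0.110 TPM. Day 15 replicate 2 had the highest sums of macrophage markers (219 TPM against 51.0 to 101 in the others) and of lymphocyte markers (46.1 against 9.05 to 18.8).

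All 40 listed factors passed the filter of at least 1 TPM in at least 3 libraries, and all 40 had lower means at day 7 than at day 0. By limma on log2(TPM + 1), with p-values adjusted over all 12268 genes tested and a threshold of 0.05, 27 of the 40 fell from day 0 to day 7 and 13 did not pass. Among all genes tested, 8.88% fell and 7.67% rose. The count of factors was 8 without day 0 replicate 6, 14 without day 0 replicate 4 and 13 without day 7 replicate 6, and in these fits 1.47%, 2.83% and 2.91% of all genes fell. The median log2 difference was -0.79 over the factors and -0.04 over all genes tested. In 10 factors the fall was at least 2-fold (NOP58, GAR1, WDR43, RRP9, RRP12, NOC2L, RRS1, GNL3, MRTO4 and PPAN), against 2.51% of all genes. In 33 factors every day 7 library was below every day 0 library, which held for 23.8% of all genes.

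**Figure D1:**
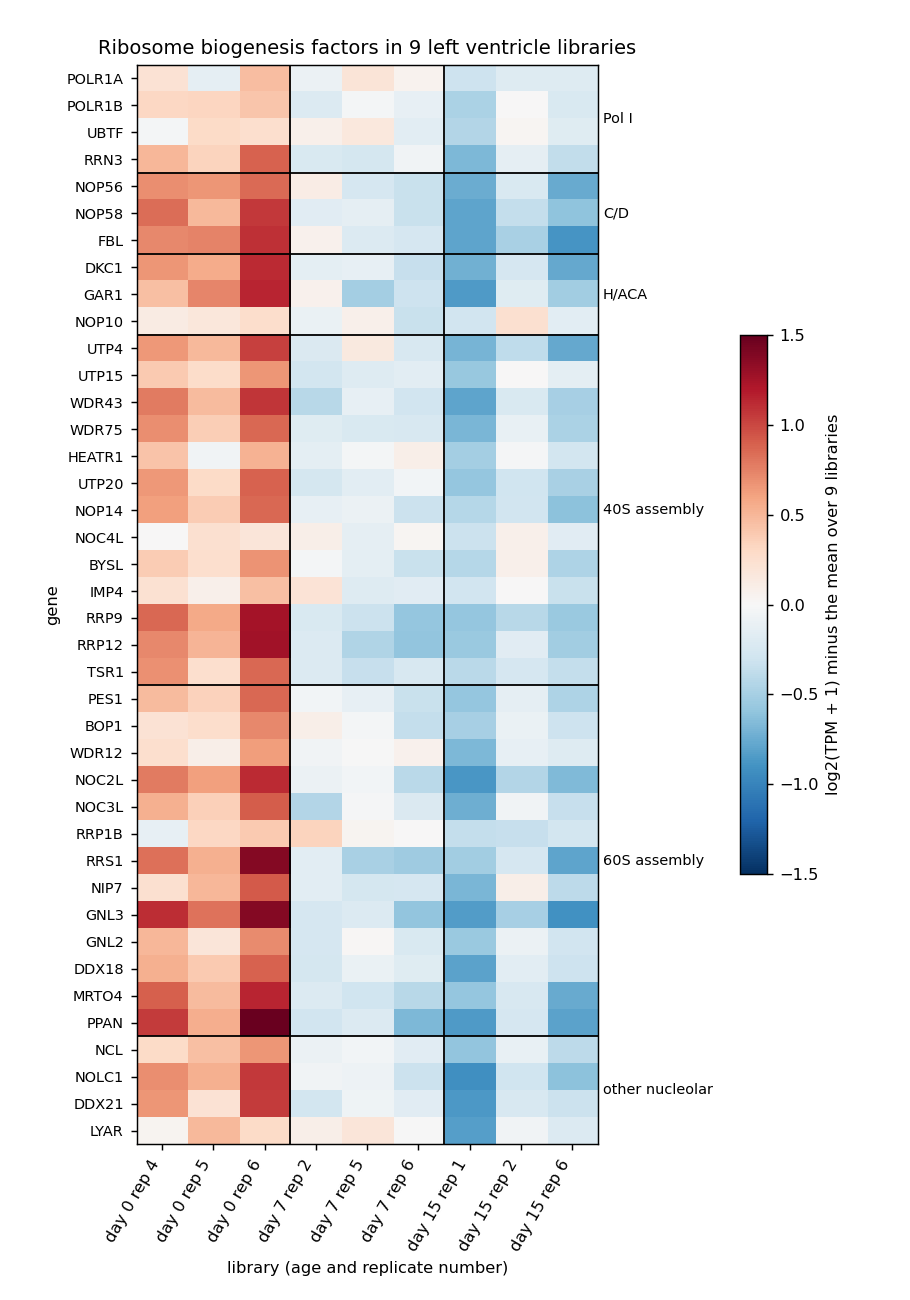
Level of each of the 40 factors (rows, grouped by role) in each of the 9 libraries (columns), as log2(TPM + 1) minus the gene's mean over the libraries. Day 0 columns are mostly red, day 0 replicate 6 is the highest library for 37 of the 40 genes, and day 15 replicate 1 is the lowest for 27.

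From day 0 to day 15, 32 factors fell and 8 did not pass, against 18.4% of all genes falling and 5.53% rising. The median log2 difference was -1.002 over the factors and -0.19 over all genes. In 20 factors the fall was at least 2-fold, against 4.39% of all genes, and in 36 the libraries did not overlap, against 30.5%. The 27 factors that fell by day 7 were all among these 32. The other 5 were POLR1B, BYSL, BOP1, WDR12 and GNL2. In every alternative 18 of the 32 calls were kept, and these 5 were among the 14 that were not. An F test over the 3 ages called 29 factors, against 22% of all genes. It called 14 without day 0 replicate 6, against 3.42% of all genes. The 2 comparisons share their day 0 libraries.

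From day 7 to day 15 no factor passed the threshold in limma's test, and 5 had an unadjusted p below 0.05 (FBL, UTP4, NOC2L, RRP1B and NOLC1). Of all 12268 genes tested, 1565 had an unadjusted p below 0.05 in either direction. Few genes passed the threshold in this comparison: 0.13% fell and 0.0408% rose. The mean was lower at day 15 in 39 of the 40 factors, with a median log2 difference of -0.23 beside -0.15 over all genes. Under median-of-ratios scaling 28 of the 40 were lower. In 9 factors the libraries did not overlap, against 17.9% of all genes. Whether the first step was larger than the second was tested directly, as the day 7 minus day 0 difference less the day 15 minus day 7 difference. No factor passed in limma, and 8 had an unadjusted p below 0.05, all negative, which is a larger fall in the first step (WDR43, RRP9, RRP12, TSR1, RRS1, GNL3, MRTO4 and PPAN). In that test 2201 of the 12268 genes had an unadjusted p below 0.05, of either sign. At the adjusted threshold 0.391% of all genes were negative and 1.53% positive. Under median-of-ratios scaling RRP9, RRP12 and GNL3 passed, with contrasts of -1.25, -1.36 and -1.16 on the log2 scale. In that fit 2.46% of all genes were negative.

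**Figure D2:**
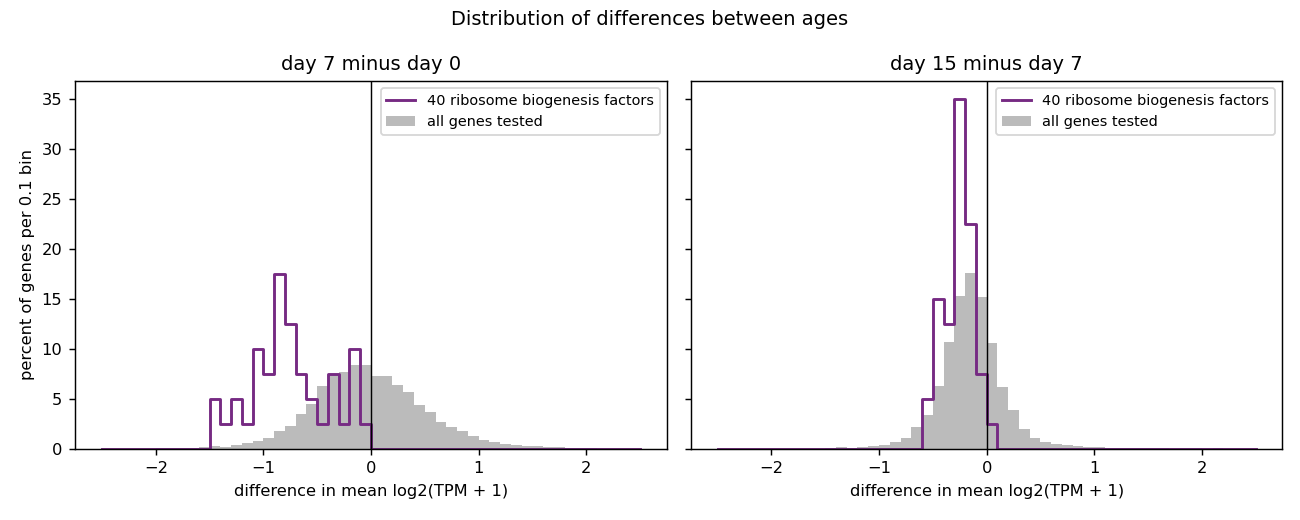
Share of genes (percent per bin of 0.1) against the difference in mean log2(TPM + 1), for day 7 minus day 0 (left) and day 15 minus day 7 (right). Grey bars are all 12268 genes tested and the purple line is the 40 factors, whose median is -0.79 on the left and -0.23 on the right.

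Summed over the 40 factors, the level was 885, 833 and 1134 TPM in the day 0 libraries, 567, 553 and 491 TPM a week later, and 376, 525 and 418 TPM at day 15. Every day 0 library was above every later one, and the day 7 and day 15 mean sums were 56.5% and 46.2% of the day 0 mean sum. In this bulk tissue, fewer cells of a type and less RNA per cell cannot be told apart. Each library's all-gene median was subtracted from the median deviation of the 40 factors, here with NOP2 and NPM1 included. This gave 0.59, 0.29 and 0.66 at day 0, between -0.26 and -0.17 at day 7, and between -0.37 and -0.25 at day 15. The lowest of the day 0 values was that of replicate 5, the library with the high atrial sum. Its sums of erythroid (1267 TPM), fibroblast (1469), pericyte and smooth muscle (512) and cell division markers (128) were also the highest of day 0. So were those of macrophage (70.5 TPM) and adipocyte markers (295). Its sums of cardiomyocyte (50307 TPM), lymphocyte (9.57) and Schwann cell markers (6.64) were the lowest of day 0. Whether any of these bears on its value was not tested. Without day 0 replicate 5, 28 factors fell at day 7 and 34 at day 15, beside 9.76% and 18.3% of all genes.

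Without day 0 replicate 6, the 8 factors that fell from day 0 to day 7 were NOP58, FBL, RRP9, RRP12, RRS1, GNL3, MRTO4 and PPAN, and the median difference of the 40 was -0.63. They were 2 of the box C/D genes, 2 of small subunit assembly and 4 of large subunit assembly. These 8 genes passed in each of the 22 alternatives. The share of rising and falling genes also depended on the scaling. Rescaling without the mitochondrial and 20 most abundant genes gave 2353 rising and 1235 falling genes at day 7, in place of 941 and 1090, and median-of-ratios scaling gave 1877 rising and 1932 falling at day 15, in place of 678 and 2255. The all-gene median at day 15 moved with it, from -0.19 to 0.01. Relative to the all-gene median, the factors' median lay between -0.79 and -0.72 at day 7 and between -0.90 and -0.80 at day 15 over the 4 other scalings and the deposited values.

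The RNA polymerase I group held 4 genes, of which 1 fell by day 7 and 2 by day 15, beside 8.88% and 18.4% of all genes. The day 7 call was lost without day 0 replicate 4 or 6 or any day 7 library. RRN3, which recruits the polymerase to the promoter, was at 7.22, 6.30 and 9.76 TPM at day 0, 3.97, 3.84 and 4.60 at day 7, and 2.65, 4.29 and 3.50 at day 15. It was higher in all day 0 libraries than in any later one. Its log2 difference was -0.75 ± 0.20 (SE, 3 libraries per age) at day 7, with an adjusted p of 0.0277 by limma, and 0.128 without day 0 replicate 6. POLR1B, the second-largest polymerase subunit, was at 10.3, 10.5 and 11.2 TPM at day 0, 6.93, 7.99 and 7.43 at day 7, and 5.58, 8.22 and 6.81 at day 15. Its day 0 libraries stood above all others, and it passed only at day 15 (adjusted p = 0.0305 by limma, 0.0819 at day 7).

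The other polymerase I genes overlapped between day 0 and day 7. POLR1A, the largest subunit, was at 5.35, 3.97 and 6.52 TPM at day 0, 4.16, 5.28 and 4.68 at day 7, and 3.42, 3.80 and 3.79 at day 15. UBTF, which binds ribosomal DNA along the gene, was at 21.3, 26.8 and 26 TPM at day 0, 22.9, 24.3 and 19.3 at day 7, and 15.8, 22.2 and 19.0 at day 15. Neither passed at either age. Rescaling without the mitochondrial and 20 most abundant genes put the day 7 difference of both genes, and of NOC4L and RRP1B, above 0, and that of POLR1A was 0.02 without day 0 replicate 6. The day 7 mean of UBTF was 89.8% of its day 0 mean, and that of RRN3 was 53.3%. Within a library, the ratio of UBTF to RRN3 was 2.95, 4.26 and 2.66 at day 0, 5.76, 6.33 and 4.21 at day 7, and 5.96, 5.18 and 5.44 at day 15. One day 0 value, 4.26 in replicate 5, lay above the lowest day 7 value. A ratio within a library does not depend on its scaling. These ratios were chosen after the values were seen and carry no test.

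All 3 genes of the box C/D snoRNP core, which methylates ribosomal RNA, fell at both ages (all genes, 8.88% and 18.4%). FBL, the methyltransferase fibrillarin, was the most abundant of them, at 71.2, 72.8 and 92.7 TPM at day 0, 44.9, 37.2 and 35.8 at day 7, and 24.4, 30.3 and 22.9 at day 15. None of the 3 ages overlapped. Its log2 difference from day 0 was -0.98 ± 0.18 (SE) at day 7, with an adjusted p of 0.00731 by limma, and -1.57 ± 0.18 at day 15, with 0.000632. NOP58, a scaffold of the particle, was at 39.0, 30.4 and 45.9 TPM at day 0, 18.9, 19.3 and 16.8 at day 7, and 11.9, 16.4 and 13.7 at day 15. Its partner NOP56 was at 44.2, 43.0 and 49.1 TPM at day 0, 29.1, 22.4 and 21.1 at day 7, and 15.6, 22.7 and 15.5 at day 15. NOP58 did not overlap between ages, whereas the day 7 and day 15 values of NOP56 did. The adjusted p at day 7 was 0.00784 for NOP58 and 0.0126 for NOP56 by limma, and without day 0 replicate 6 that of NOP56 was 0.0679.

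Ratios within this core overlapped between ages. The ratio of NOP56 to NOP58 averaged 1.21 ± 0.18 (SD, n = 3) at day 0, 1.32 ± 0.20 at day 7 and 1.27 ± 0.13 at day 15. That of FBL to NOP58 averaged 2.08 ± 0.29, 2.14 ± 0.22 and 1.85 ± 0.19.

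The box H/ACA core, which converts uridines to pseudouridine, was measured through 3 genes, of which 2 fell at both ages. Of all genes, 8.88% fell by day 7 and 18.4% by day 15. DKC1, the pseudouridine synthase dyskerin, was at 17.9, 16.5 and 24.8 TPM at day 0, 9.80, 9.97 and 8.36 at day 7, and 6.25, 9.04 and 6.02 at day 15. GAR1, which binds dyskerin near its active site, was at 12.9, 15.9 and 21.6 TPM at day 0, 9.65, 6.15 and 7.26 at day 7, and 4.66, 7.98 and 6.10 at day 15. Both were higher in all day 0 libraries than later. The log2 difference at day 7 was -0.98 ± 0.21 (SE) for DKC1 and -1.03 ± 0.24 for GAR1, with adjusted p of 0.0110 and 0.0161 by limma. These became 0.0626 and 0.0843 without day 0 replicate 6.

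NOP10, the smallest protein of the same core, was at 21.6, 22.3 and 23.8 TPM at day 0, 18.4, 20.9 and 15.4 at day 7, and 16, 23.5 and 17.6 at day 15. It did not overlap between day 0 and day 7 but did between day 0 and day 15, where one library reached 23.5 TPM. It passed at neither age (adjusted p = 0.267 and 0.340 by limma), and its day 15 difference was above 0 under quantile normalization. The ratio of NOP10 to DKC1 was 1.21, 1.35 and 0.961 at day 0, 1.88, 2.09 and 1.84 at day 7, and 2.56, 2.60 and 2.92 at day 15. The 3 ages did not overlap in this ratio. The ratio of GAR1 to DKC1 averaged 0.853 ± 0.12 (SD, n = 3), 0.823 ± 0.19 and 0.880 ± 0.13, with overlap between all ages.

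**Figure D3:**
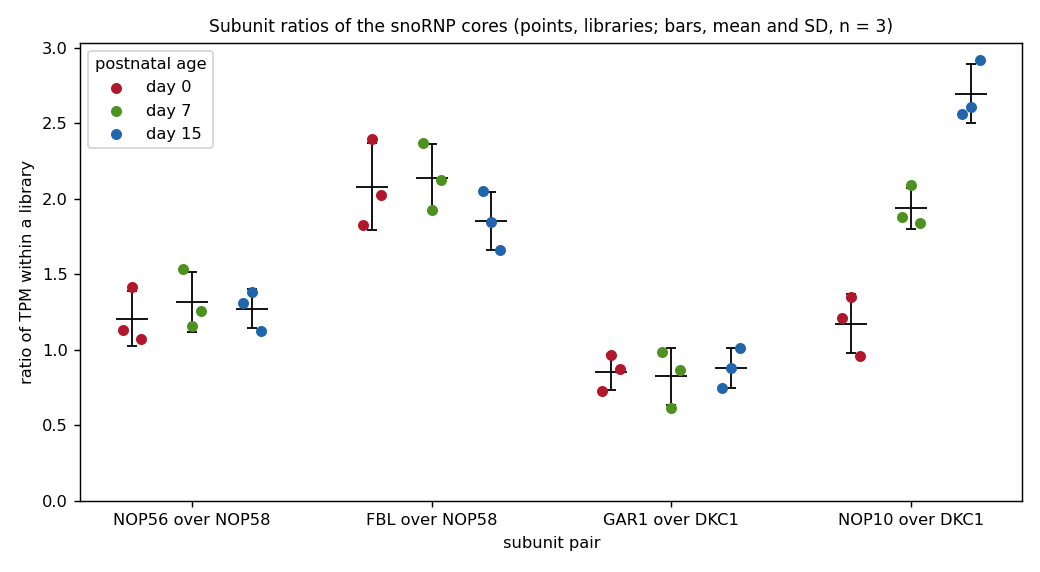
Ratio of TPM within each library for 4 subunit pairs of the snoRNP cores, by age; points are libraries and bars the mean and SD (n = 3). NOP10 over DKC1 climbs from a mean of 1.17 to 1.94 and 2.69, while the other 3 pairs overlap between ages.

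Among 13 genes of small subunit assembly, 9 fell by day 7 and 10 by day 15, beside 8.88% and 18.4% of all genes. RRP9, a protein of the U3 snoRNP, was at 22.5, 18.3 and 29.9 TPM at day 0, 10.1, 9.39 and 7.68 at day 7, and 7.70, 8.75 and 7.85 at day 15. RRP12, which acts in export of pre-ribosomes, was at 21.1, 18.1 and 31.3 TPM at day 0, 10.6, 8.84 and 7.95 at day 7, and 8.15, 10.9 and 8.37 at day 15. In both genes the day 7 and day 15 libraries overlapped and all lay below day 0. The log2 difference at day 7 was -1.27 ± 0.20 (SE) for RRP9, with an adjusted p of 0.00429 by limma, and -1.25 ± 0.22 for RRP12, with 0.00574. At day 15 these were -1.41 and -1.25.

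UTP4, WDR43, UTP20 and NOP14, all proteins of the small subunit processome, also fell. UTP4 was at 16.9, 15.1 and 22.4 TPM at day 0, 8.84, 11.7 and 8.72 at day 7, and 6.10, 7.79 and 5.71 at day 15. WDR43 was at 12.3, 9.79 and 15.3 TPM at day 0, 4.82, 6.13 and 5.33 at day 7, and 3.49, 5.61 and 4.5 at day 15. UTP4 did not overlap between any ages, while day 7 and day 15 overlapped in WDR43. UTP20, the largest of these proteins, was at 5.71, 4.21 and 6.84 TPM at day 0, 2.55, 2.82 and 3.14 at day 7, and 1.85, 2.45 and 2.03 at day 15. NOP14, which joins the processome with NOC4L, was at 16.1, 13.5 and 19.3 TPM at day 0, 9.18, 9.5 and 7.89 at day 7, and 7.28, 8.11 and 6.25 at day 15. UTP20 separated all 3 ages, and NOP14 separated day 0 from the rest. The adjusted p at day 7 by limma was 0.0192 for UTP4, 0.00919 for WDR43, 0.0211 for UTP20 and 0.0151 for NOP14. Without day 0 replicate 6 none of the 4 passed, with values of 0.0968, 0.0538, 0.102 and 0.0809.

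IMP4, a processome protein bound to the U3 snoRNP, was the most abundant of the small subunit group over the 9 libraries. It was at 26.8, 24.1 and 31.4 TPM at day 0, 26.4, 19.8 and 20.2 at day 7, and 18.6, 23.0 and 17.9 at day 15. It overlapped between day 0 and day 7, was below day 0 at day 15, and passed at neither age (adjusted p = 0.268 and 0.0936 by limma). The ratio of IMP4 to RRP9 was 1.19, 1.32 and 1.05 at day 0, 2.63, 2.11 and 2.63 at day 7, and 2.41, 2.62 and 2.28 at day 15. Day 0 lay below both later ages, which overlapped each other. HEATR1, which belongs to the same early complex as UTP4 and WDR43, also did not pass at day 7 (adjusted p = 0.272 by limma), and neither did NOC4L and BYSL. The remaining genes of the group (UTP15, WDR75 and TSR1) fell at day 7 to between 48.0% and 55.5% of their day 0 means.

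**Figure D4:**
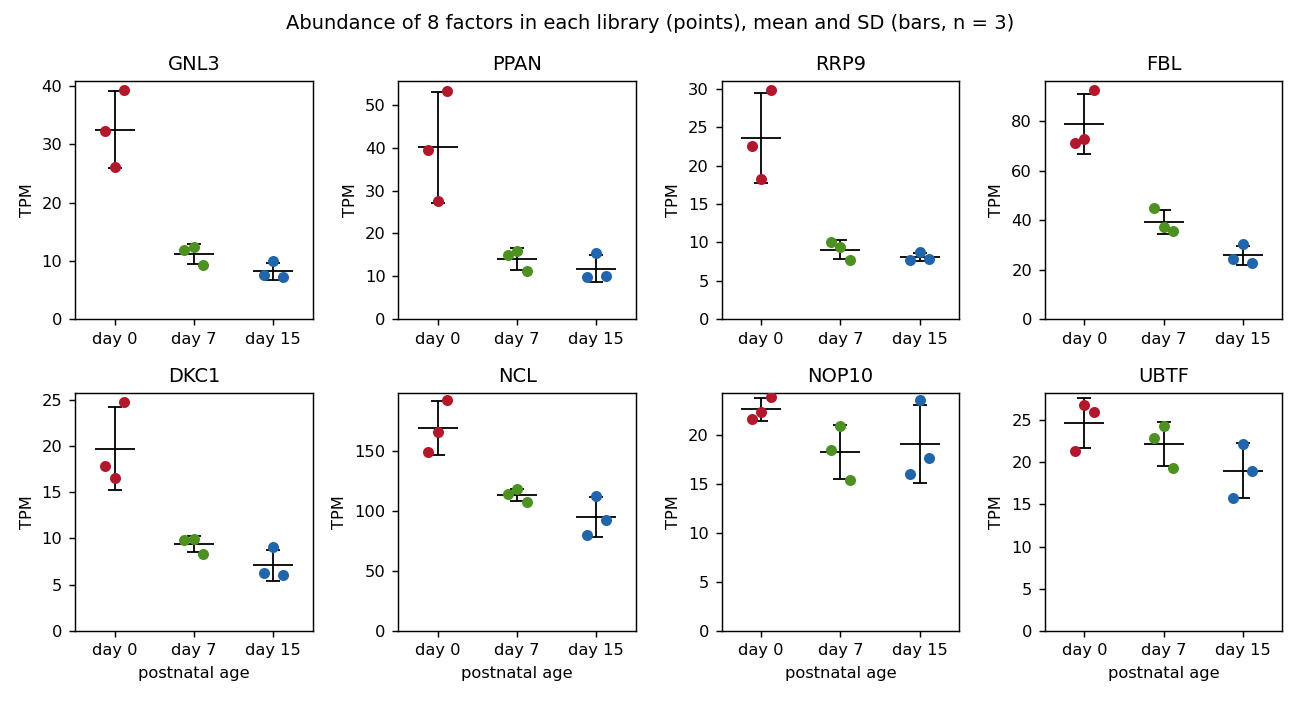
TPM of 8 factors in each library (points), with the mean and SD of each age (bars, n = 3), on linear axes from 0. GNL3, PPAN, RRP9, FBL, DKC1 and NCL separate day 0 from both later ages, NOP10 separates it from day 7 only, and UBTF overlaps between all ages.

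The 13 genes of large subunit assembly held the 3 largest falls at day 7 (GNL3, PPAN and RRS1). Of the 13, 9 fell by day 7 and 12 by day 15, beside 8.88% and 18.4% of all genes. GNL3 (nucleostemin), a GTPase that shuttles between nucleolus and nucleoplasm, was at 32.3, 26.1 and 39.3 TPM at day 0, 11.9, 12.4 and 9.28 at day 7, and 7.61, 9.91 and 7.22 at day 15. Day 0 stood clear of the other ages, and day 7 and day 15 overlapped. Its log2 difference was -1.45 ± 0.20 (SE) at day 7, with an adjusted p of 0.00291 by limma, and -1.85 ± 0.20 at day 15, with 0.00045. Its day 7 and day 15 means were 34.5% and 25.3% of the day 0 mean. The related GTPase GNL2 was at 61.5% at day 7 (adjusted p = 0.0501 by limma) and fell by day 15 (0.0157), to 54.5%. The ratio of GNL3 to GNL2 was 2.86, 2.95 and 2.97 at day 0, 1.89, 1.59 and 1.45 at day 7, and 1.55, 1.38 and 1.18 at day 15. Its 3 day 0 values lay close together and above every later one.

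PPAN, MRTO4, RRS1 and NOC2L followed. PPAN, a pre-ribosome factor of the Brix family, was at 39.4, 27.5 and 53.3 TPM at day 0, 15.0, 15.9 and 11.2 at day 7, and 9.86, 15.3 and 10.2 at day 15. RRS1, which helps to bring the 5S particle into the pre-ribosome, was at 20, 16.1 and 29.7 TPM at day 0, 9.63, 7.45 and 7.14 at day 7, and 7.21, 8.90 and 5.82 at day 15. Both were spread widely at day 0 and still did not overlap with later ages. MRTO4, a placeholder for a stalk protein on the pre-ribosome, was at 11.7, 8.44 and 14.0 TPM at day 0, 4.91, 4.55 and 4.12 at day 7, and 3.57, 4.76 and 3.02 at day 15. NOC2L, a protein of early large subunit particles, was at 48.2, 42.8 and 61.0 TPM at day 0, 25.9, 26.9 and 20.6 at day 7, and 14.6, 20.2 and 17.1 at day 15. NOC2L separated all 3 ages, whereas MRTO4 separated day 0 only. The log2 differences at day 7 were -1.41, -1.31, -1.14 and -1.01 for PPAN, RRS1, MRTO4 and NOC2L, with adjusted p of 0.00623, 0.00628, 0.0071 and 0.00811 by limma. That of NOC2L was 0.0504 without day 0 replicate 6.

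PES1, BOP1 and WDR12 form the PeBoW complex, which acts in processing of large subunit RNA. PES1 was at 47.1, 42.8 and 61.7 TPM at day 0, 32.5, 30.6 and 26.4 at day 7, and 22.2, 30.5 and 24.1 at day 15. BOP1 was at 16, 16.5 and 23.0 TPM at day 0, 14.5, 13.3 and 10.4 at day 7, and 9.32, 12.7 and 10.8 at day 15. WDR12 was at 3.50, 2.99 and 4.84 TPM at day 0, 2.64, 2.76 and 2.94 at day 7, and 1.36, 2.46 and 2.31 at day 15. All 3 genes were lower in each day 7 library than in any day 0 library, by a narrow margin in WDR12. By limma PES1 fell at day 7 (adjusted p = 0.0260, and 0.124 without day 0 replicate 6), and BOP1 and WDR12 did not pass (0.101 and 0.285). All 3 fell by day 15, with log2 differences of -0.95, -0.70 and -0.65. The ratio of BOP1 to PES1 averaged 0.366 ± 0.025 (SD, n = 3) at day 0, 0.424 ± 0.027 at day 7 and 0.427 ± 0.016 at day 15, and its day 0 libraries lay below all later ones.

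RRP1B, a nucleolar regulator of large subunit processing, changed least at day 7, where its mean was 94.5% of that at day 0. It was at 66.0% at day 15 and passed at neither age. NOC3L, NIP7 and DDX18 fell at day 7 to between 48.9% and 53.5% of their day 0 means.

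**Figure D5:**
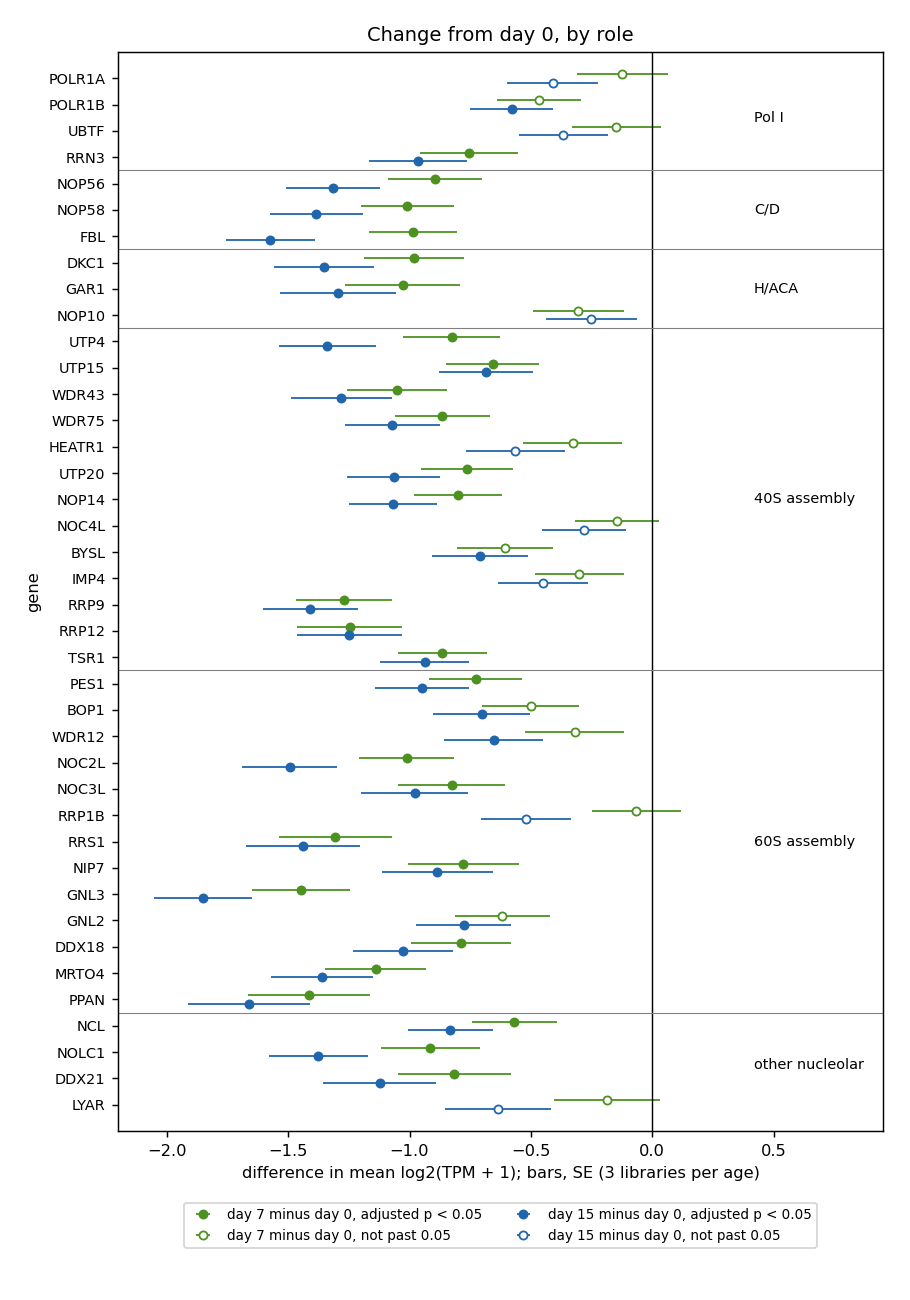
Difference in mean log2(TPM + 1) from day 0 for each of the 40 factors, at day 7 (green) and day 15 (blue), with SE bars; filled symbols passed an adjusted p of 0.05 in limma. All points lie below 0, from -0.07 (RRP1B) to -1.45 (GNL3) at day 7.

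Of 4 abundant or multifunctional nucleolar proteins, 3 fell at both ages, beside 8.88% of all genes at day 7 and 18.4% at day 15. NCL (nucleolin), the most abundant factor at every age, was at 149, 166 and 193 TPM at day 0, 114, 118 and 108 at day 7, and 80.2, 113 and 92.7 at day 15. NOLC1, a phosphoprotein that chaperones snoRNPs, was at 22.8, 20.3 and 29.6 TPM at day 0, 13.2, 12.9 and 10.8 at day 7, and 6.78, 10.9 and 8.56 at day 15. In both genes day 0 was above all later libraries. NCL had a log2 difference of -0.57 ± 0.18 (SE) at day 7, with an adjusted p of 0.0453 by limma, and NOLC1 one of -0.91 ± 0.21, with 0.0145. These were 0.182 and 0.0795 without day 0 replicate 6. DDX21, a helicase, fell at both ages, and LYAR passed at neither (adjusted p = 0.568 and 0.0514).

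TPM is normalised for transcript length, so levels can be set side by side. At day 0 the highest means were those of NCL (170 TPM), FBL (78.9), NOC2L (50.7), PES1 (50.5) and NOP56 (45.5). At day 15 they were those of NCL (95.2 TPM), FBL (25.8), PES1 (25.6), IMP4 (19.8) and NOP10 (19.0). The SDs of NOC2L and PES1 at day 0 (9.37 and 9.91 TPM) and of FBL and PES1 at day 15 (3.93 and 4.34 TPM) exceed the differences between these neighbours. At day 15 IMP4, NOP10, UBTF, NOP56 and NOC2L had means between 17.3 and 19.8 TPM, which differ by less than the SD of NOP10 (3.98 TPM), so their order is not resolved.

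In a RefSeq table of pig genes (Sscrofa11.1), 14 of the 40 factors overlap another protein-coding gene, among them GNL3 with PBRM1, NOP56 with IDH3B, NOC2L with SAMD11 and UTP4 with CHTF8. With the use of strand in counting not given in the sources used here, reads of such pairs may not have been separated.

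Other ribosome biogenesis genes were taken from 6 lists, of which 150 genes were tested. From day 0 to day 7, 56 of them fell and 1 rose, with a median log2 difference of -0.53, beside 8.88% of all genes falling. By day 15, 97 fell, with a median of -0.71, beside 18.4% of all genes. These counts changed when single libraries were left out, and so did the share of all genes falling. Without day 0 replicate 6, 6 genes fell at day 7 (LSG1, WDR74, RSL1D1 and RPF2 of the large subunit list, NOB1 and FTSJ3 of the small subunit list) and 37 at day 15, beside 1.47% and 4.87% of all genes. The day 7 count was 17 without day 0 replicate 4, 16 without day 7 replicate 6, 27 without day 7 replicate 2 and 29 without day 7 replicate 5. In these fits 2.83%, 2.91%, 5.17% and 6.43% of all genes fell at day 7. The day 15 count was 56 without day 15 replicate 6, beside 8.61% of all genes. With all libraries the small subunit list had 22 of 41 genes falling at day 7 and 34 at day 15, and the large subunit list had 20 and 32 of 48. The same counts were 2 and 11, and 4 and 16, without day 0 replicate 6. LSG1, a GTPase of the last steps of large subunit maturation, was at 61.1, 51.3 and 70.0 TPM at day 0, 19.4, 19.9 and 18.7 at day 7, and 15.2, 21.9 and 18.4 at day 15. Its day 0 libraries lay above all later ones, and day 7 and day 15 overlapped. The contrast of its 2 steps had an adjusted p of 0.0351 by limma, but between 0.0718 and 0.152 without day 0 replicate 4 or 6, any day 7 library or day 15 replicate 6. NOB1, the nuclease that cuts the end of small subunit RNA, fell at day 7 with a log2 difference of -1.09 ± 0.18 (SE) and an adjusted p of 0.00480 by limma.

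The other polymerase I list had 1 of 11 genes falling at day 7, a share near the 8.88% of all genes. At day 15, 5 fell, beside 18.4% of all genes. The gene that fell at day 7 was POLR1C, a subunit shared with RNA polymerase III (adjusted p = 0.0176 by limma, 0.0891 without day 0 replicate 6). In the snoRNP assembly list 4 of 11 genes fell at day 7 and 6 at day 15. Among ribosomal RNA nucleases 7 of 22 and 14 of 22 did, beside 8.88% and 18.4% of all genes. Every day 7 call of these 2 lists was lost without day 0 replicate 6, where 1.47% of all genes fell at day 7. In that fit 1 snoRNP assembly gene and 6 nuclease genes fell by day 15, beside 4.87% of all genes. In the list for RNA polymerase III and 5S RNA, 2 of 17 fell at day 7 (POLR3D and POLR3E), a share near the 8.88% of all genes. GTF3A, which binds the 5S gene, rose from a mean of 6.07 TPM at day 0 to 9.82 at day 7. By limma the adjusted p of POLR3D, POLR3E and GTF3A was 0.00893, 0.00989 and 0.0449, and without day 0 replicate 6 it was 0.0538, 0.0574 and 0.133.

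Of 9 cell division markers, 6 rose at day 7, with a median log2 difference of 1.38, beside 7.67% of all genes rising. The count was 1 (TYMS) without day 0 replicate 6, 2 without day 0 replicate 4, 3 without day 7 replicate 2 and 9 without day 0 replicate 5. The summed level of the cell division markers was 49.1, 128 and 58.1 TPM at day 0, 200, 180 and 155 at day 7, and 75.1, 95.02 and 112 at day 15. Fibroblast markers summed to 950 to 1469 TPM at day 0, 1657 to 2273 at day 7 and 1187 to 1499 at day 15. Endothelial markers summed to 265 to 317 TPM at day 0, 371 to 443 at day 7 and 242 to 290 at day 15. Adipocyte and Schwann cell markers were lower in every later library than in any of day 0. Pericyte and smooth muscle markers overlapped between day 0 and day 7 and were below day 0 at day 15. Adipocyte markers summed to 216 to 295 TPM at day 0, 56.1 to 117 at day 7 and 161 to 183 at day 15. Pericyte and smooth muscle markers summed to 346 to 512 TPM, 289 to 363 and 216 to 253, and Schwann cell markers to 6.64 to 15.1 TPM, 0.253 to 4.84 and 1.77 to 3.82. The part of these marker levels in the falls of the ribosome biogenesis factors was not tested.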

How the data were processed

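Left ventricle of wild type pigs was sequenced at 3 ages, 3 libraries each. The authors deposited 1 table of TPM values, and all 9 columns were used. Per the submitters' processing notes, the tools were Trimmomatic 0.33, kallisto 0.43.1 and HISAT2 2.0.5, with no role stated. Genome build, annotation and use of strand: not given in the sources used here. Libraries were stranded and made from mRNA, per the labels' protocols. TPM carries no depth, so no counting interval is given.

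Genes with at least 1 TPM in at least 3 libraries were kept and their log2(TPM + 1) taken (pseudocount 1 TPM), on which scale the change of low genes is understated. With limma 3.58.1 (R 4.3.3), the 9 libraries were fitted together with a mean for each age, leaving 6 residual degrees of freedom, and variances were moderated along their trend with abundance. P-values were adjusted by the Benjamini-Hochberg method over 12268 genes. A permutation of 3 against 3 libraries cannot give an exact two-sided p below 0.1. The script was tested on simulated data.

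Values in every library are given for 27 factors: up to 16 with the smallest adjusted p, the most abundant and the smallest-p gene of each role, and members of named complexes. From each other list at most 3 genes are given with values, apart from MYC, its partners and antagonists. Some genes that kept their call without day 0 replicate 6 are also named. The members, lists and tests were chosen with earlier results of these data known. Alternatives were other pseudocounts, filters, scalings, variance settings, a replicate block and leaving out each library. No sequences are printed.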

Additional observations from a re-analysis of the deposited data

How the results depend on the processing

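No called difference changed sign under any alternative run. Leaving out each library in turn, the factors falling from day 0 to day 7 numbered 8 to 30 (27 with all libraries), those falling from day 0 to day 15 numbered 23 to 34 (32), those called by the F test 14 to 31 (29), and those called in the contrast of the 2 steps 0 to 2 (0). The lowest count was without day 0 replicate 6 in the first 3 cases. Over these leave-out fits 1.47% to 12.1% of all genes fell by day 7 and 4.87% to 23.3% by day 15. The F test called 3.42% to 26.2% of all genes. Both genes called in the contrast of steps, RRP9 and RRP12, were called without day 0 replicate 5. In that fit the contrast of steps was called negative in 1.07% of all genes and positive in 4.82%. That contrast called 3 factors under median-of-ratios scaling, 3 under quantile normalization, 2 after rescaling without the most abundant gene, 3 after rescaling without the mitochondrial and 20 most abundant genes, and 2 with library weights. All were negative, and in the same order 2.46%, 2.19%, 1.13%, 1.28% and 2.13% of all genes were negative. With library weights 6 factors fell from day 7 to day 15 (GNL3, FBL, UTP4, DKC1, NOP56 and NOC2L), in place of 0. Of all genes 8.90% fell in that fit, in place of 0.13%. The cause of these differences was not tested. Over the 27 factors with values in every library, 535 day 7 results stayed on their side of the threshold, 45 lost their call, 8 gained one, and 3 changed sign without being called (POLR1A under 2 alternatives and UBTF under 1).

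The labels do not say whether libraries with the same replicate number are related. Same-numbered libraries had correlations of deviations from the age means between -0.213 and 0.170. Differently numbered libraries of different ages had values between -0.335 and 0.372, so these correlations cannot settle it. A fit with the replicate number as a replicate block, which leaves 2 residual degrees of freedom, called 17 factors falling from day 0 to day 7, 19 from day 0 to day 15 (32 without it) and 14 in the F test. Beside these counts 4.34%, 4.26% and 6.58% of all genes were called (8.88%, 18.4% and 22% without the block). The unknown depth limits what can be said of factors at low TPM, such as WDR12 and HEATR1.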

Other observations

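Of 11 tested genes among MYC, its partners and antagonists, 2 fell (MYC and MLX) and 2 rose (MXD3 and MXD4) at day 7, with a median log2 difference of 0.29, beside 8.88% of all genes falling and 7.67% rising. None of the 4 passed without day 0 replicate 6. MYC itself was at 26.6, 19.4 and 35.1 TPM at day 0, 11.3, 11.9 and 8.21 at day 7, and 4.63, 8.52 and 5.95 at day 15. Its day 0 libraries lay above all later ones. Its log2 difference from day 0 was -1.27 ± 0.25 (SE) at day 7, with an adjusted p of 0.00929 by limma (0.0549 without day 0 replicate 6), and -1.92 ± 0.25 at day 15, with 0.00107. MXD3, a MAX partner that represses transcription, was at 3.49, 10.6 and 4.03 TPM at day 0, 19.9, 15.9 and 13.4 at day 7, and 7.90, 11.5 and 11.6 at day 15. Its day 7 libraries were above all others, and it rose at day 7 (log2 difference 1.42 ± 0.32, adjusted p = 0.0136 by limma, 0.0758 without day 0 replicate 6). The means of MXD4 were 10.2 TPM at day 0 and 20.6 at day 7, and those of MLX 29.6 and 18.4, with adjusted p of 0.0323 and 0.0267 by limma, and 0.0937 and 0.124 without day 0 replicate 6.

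Among 57 cytoplasmic ribosomal protein genes tested, 8 fell by day 7 and 46 by day 15, with median log2 differences of -0.39 and -0.73, beside 8.88% and 18.4% of all genes falling. No ribosomal protein gene kept its day 7 call without day 0 replicate 6 (lowest adjusted p 0.0675, RPS25, by limma, with 10 genes at an unadjusted p below 0.05), and 9 fell by day 15. In that fit 1.47% of all genes fell at day 7 and 4.87% by day 15. An unadjusted p below 0.05 at day 7 was reached there by 2878 of all 12147 genes. The day 7 calls were also lost without day 0 replicate 4 (14 genes at an unadjusted p below 0.05), where 28 fell by day 15, and 28 and 23 did so without day 15 replicate 1 and 6. In these fits 12.3%, 10.9% and 8.61% of all genes fell by day 15. Without day 0 replicate 4, 3248 of all 12183 genes had an unadjusted p below 0.05 at day 7. The day 7 count was 4 without day 7 replicate 5 or day 15 replicate 6, and 2 without day 7 replicate 6. Beside these, 6.43%, 6.51% and 2.91% of all genes fell at day 7. Both medians were closer to 0 than those of the 40 factors (-0.79 and -1.002), a difference that was not tested. These genes have near-identical copies, and no source used here says how shared reads were assigned.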
